A study of Mus musculus with 16 samples.

Results

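Adult mouse retina and newborn mouse cerebral cortex were compared across all genes on the arrays of the first of the study's 2 sites. The comparison rests on 10 of the 16 arrays in the series, the 5 retina and 5 cortex arrays whose titles carry no mark of site 2. All 12422 probe sets that are not array controls were tested, and none was removed for a low value. The retina RNA came from a pool of 350 adult C57/B6 mice and the cortex RNA from a pool of 19 mice at postnatal day 1. The sample descriptions give the cortex donors as C57/B6, while the series' design text gives Swiss-Webster, so organ, age and possibly strain differ together and cannot be told apart. No allele, transgene or treatment is named for either group. Both tissues were kept in TRIzol, a phenol reagent for RNA extraction, and each array received biotin-labelled cRNA made from close to 10 µg of total RNA. The arrays of a tissue are aliquots of its single pool, so every SD, SE and p-value here measures the spread between repeated arrays and not the spread between mice. Where a gene is lower in one tissue, fewer cells of a type and less RNA per cell cannot be told apart.

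The adult retina is a sheet of mature neurons in which rod photoreceptors are the most numerous cells. Photoreceptors keep renewing the membranes of their outer segments, pump ions at a high energy cost and release glutamate without pause from ribbon synapses, and pigment epithelium and Mueller glia support them. The newborn cortex is still under construction: neurons migrate into layers, axons and dendrites grow, few synapses are mature, and radial glia and their progeny continue to divide.

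Intensities were scaled so that the median probe set of each array is 100. The deposited medians ran from 88.45 to 155.85 over the 10 arrays. A background level was set for each array as the highest of its 13 control probe sets without added target, which lay between 17.7 and 37.0 after scaling, and 68.5% to 77.3% of probe sets were above it. Pearson's r over probe sets was 0.983 to 0.992 between retina arrays, 0.981 to 0.988 between cortex arrays and 0.890 to 0.899 between the tissues. The median coefficient of variation between arrays was 34.8% in retina and 37.8% in cortex over the 4141 dimmest probe sets, and 9.07% and 9.14% over the brightest 4141.

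The labels were set against marker genes. The 5 measured rod markers were all higher in retina, with summed intensities of 34032 to 38774 on the retina arrays and 61.4 to 79.8 on the cortex arrays, and none of the 5 was above background on all cortex arrays. The 3 Mueller glia markers were higher too, with sums of 5728 to 6265 in retina and 792 to 1006 in cortex. The 4 measured cortical neuron markers were lower in retina, with sums of 243 to 311 against 11174 to 12940.0, and 2 of 3 radial glia markers were lower. Markers of other cells also differed. Lens markers summed to 1274 to 1423 in retina and 490.2 to 646.9 in cortex, with 4 of 5 higher, and pigment epithelium markers to 863 to 1048 and 495 to 654, with 3 of 4 higher and 1 lower. Most of each cortex sum came from 1 marker, Crybb2 for lens with a cortex mean of 393 and Ttr for pigment epithelium with 447. Ttr was the pigment epithelium marker called lower, at -0.31 ± 0.10 with overlapping arrays. The lens marker Crybb2 was not called, and its other probe set was higher in retina by 3.41 ± 0.13. Only 3 lens and 2 pigment epithelium markers were above background on all cortex arrays. Erythroid markers summed to 732 to 859.8 in retina and 3241 to 3661 in cortex, with 3 of 3 lower, and fibroblast markers to 801 to 1127 and 1626 to 1774, with 3 of 4 lower. The fibroblast marker not called, Col1a2, made up most of the retina sum, with means of 739 in retina and 822 in cortex. Its other probe set differed by -3.64 ± 0.11. Of 5 markers each, microglia had 3 lower, and endothelium had 2 higher and 2 lower. Choroid plexus markers summed to 92.5 to 242 in retina and 76.9 to 126 in cortex, with 2 of 2 higher, and muscle markers to 183 to 217 and 208 to 270.1, with 1 of 4 lower. Of the choroid plexus markers, Kl was above background on 3 retina arrays and no cortex array and was not called at site 2. The arrays of the tissues overlapped for the other, Folr1. The 1 measured striatum marker was higher in retina. The part of these cells in the differences given here was not tested.

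The tissues differed in many genes of many functions. With limma, a linear model with a moderated test, 5957 of the 12422 probe sets (48.0%) had an adjusted p under 0.05, 2773 of them higher in retina (22.3%) and 3184 lower (25.6%). Without scaling the arrays the majority turned, with 2351 higher and 2062 lower. Differences are retina minus cortex on the scale of log2(scaled intensity + 16) and are given with their SE. When each gene was represented by its brightest probe set, 4474 of 8251 genes were called (54.2%). Of these, 2126 genes were higher in retina (25.8%) and 2348 lower (28.5%), and the median difference over all genes was -0.02. The 2 tissues' arrays did not overlap for 3670 genes (44.5%), and for 38.8% of all probe sets. From 4-fold upward, more genes were higher in retina than lower. A 2-fold difference was reached by 683 genes higher (8.28%) and 716 lower in retina (8.68%), and a 4-fold difference by 208 (2.52%) and 173 (2.10%). An 8-fold difference was reached by 73 (0.885%) and 45 (0.545%), a 16-fold difference by 34 (0.412%) and 14 (0.170%), and a 32-fold difference by 18 (0.218%) and 5 (0.0606%). Presence against absence was rarer than change of level: 5686 genes were above background on all 10 arrays, 59 on all retina and no cortex arrays, 72 on all cortex and no retina arrays, and 862 on none.

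The 12 genes with the largest difference in each direction are mostly rod and cortical neuron genes, so the genes ranked 13 to 42 are described here. They were ranked by size among those whose tissues did not overlap, so that each is called is not a finding. The side higher in retina includes the rod and cone genes Abca4, Prph2, Pde6a, Gnat2, Crx, Prom1, Opn1sw, Gnb3, Unc119 and Opn1mw. Hk2 and Stx3 are described further on, Car2 is a carbonic anhydrase, and 1810009A15Rik carries a clone name. The other 16 are given here. Laptm4b, a lysosomal membrane protein, had retina intensities of 4282, 5029, 5136, 5464 and 5139 and cortex intensities of 192, 167, 169.7, 176 and 198, a difference of 4.67 ± 0.07. Its lowest retina value was far above every cortex value, and its cortex values lay close to each other. Vtn, the secreted adhesion protein vitronectin, which also limits complement, had 2539.9, 2899, 2797, 3042 and 2295 in retina and 157, 122, 145, 155 and 137 in cortex, a difference of 4.10 ± 0.09. Kcna5, a voltage-gated potassium channel subunit, had 1176, 1189, 1217, 1102 and 1094 in retina and 21.1, 15.9, 28.9, 30.6 and 25.2 in cortex, where 2 of 5 arrays were above background, and differed by 4.87 ± 0.10. A second, dimmer probe set of Kcna5 differed by 0.07 ± 0.06.

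Several immune and stress genes stood in the same rank range. Cd59a, which blocks the complement membrane attack complex, was higher by 3.86 ± 0.10, with a retina mean of 1575 ± 158 and a cortex mean of 94.5 ± 16.6 (SD over 5 arrays each). Tnfaip3, the ubiquitin-editing inhibitor of NF-kappa-B signalling, was at least 12.6-fold higher, but its retina arrays ranged widely, at 467, 254, 519.8, 158 and 394. Gzmm, a granzyme protease known from natural killer cells, had a mean of 436 ± 25.6 in retina and 12.4 ± 5.09 in cortex, with 1 cortex array above background. Hspa1b, an inducible heat shock protein, was higher by 3.65 ± 0.11.

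The remaining genes of the range include membrane transport, receptor and regulatory functions. Gabrr1, a subunit of the GABA-C type receptor of bipolar cells, was higher by 4.55 ± 0.25, with 1 of 5 cortex arrays above background. Aqp1, a water channel, was at least 21.3-fold higher, while its other probe set differed by -0.61 ± 0.19. Ppef2, a calcium-binding phosphatase of photoreceptors, was at least 31.8-fold higher. Pla2r1, the phospholipase A2 receptor, differed by 4.25 ± 0.17 and Ankrd33b, an ankyrin repeat protein, by 4.13 ± 0.12, with 1 and 3 cortex arrays above background. Dbp, a transcription factor driven by the circadian clock, had 482, 499.8, 522, 513 and 411 in retina and 18, 18.8, 21.6, 14.7 and 30.0 in cortex, where 1 array was above background, and differed by 3.79 ± 0.12. The eye field regulators Vax2 and Mab21l2 were higher by 3.69 ± 0.13 (3 cortex arrays above background) and 3.65 ± 0.10, and Cdr2, a cerebellar degeneration antigen, by 3.62 ± 0.09. The limma adjusted p of the genes given values in these paragraphs was at most 2e-08.

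Promoter letters were examined for these genes, and 9 of the 25 with a RefSeq promoter window held TAATCC, the core letters bound by Otx and Crx homeodomain factors. This counts genes, where any window of a gene is enough, so it cannot be set against the shares of windows given below. The windows run from 250 bases before to 50 after the start (RefSeq, build GRCm38.p6), and both strands were searched. The 9 genes are Abca4, Ankrd33b, Crx, Gnat2, Gzmm, Pla2r1, Ppef2, Stx3 and Unc119. None of the 19 genes with a window among the 30 ranked on the other side held it. The 250 bases before the start are printed for 5 of the 9 and for Gabrr2 and Gnb5, described further on, with TAATCC or its reverse complement GGATTA in capitals.
Ppef2 (chr5:92256279-92256528, minus strand): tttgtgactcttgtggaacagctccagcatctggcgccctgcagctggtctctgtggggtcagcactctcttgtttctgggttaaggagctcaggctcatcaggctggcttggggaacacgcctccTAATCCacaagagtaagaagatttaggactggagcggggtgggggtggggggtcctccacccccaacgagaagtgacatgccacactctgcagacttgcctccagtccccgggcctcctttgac
Unc119 (chr11:78345334-78345583, plus strand): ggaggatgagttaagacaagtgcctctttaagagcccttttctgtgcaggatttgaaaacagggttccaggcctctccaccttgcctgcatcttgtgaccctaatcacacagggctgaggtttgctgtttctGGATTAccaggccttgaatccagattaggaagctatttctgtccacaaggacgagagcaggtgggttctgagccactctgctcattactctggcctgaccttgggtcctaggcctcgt
Pla2r1 (chr2:60553309-60553558, minus strand): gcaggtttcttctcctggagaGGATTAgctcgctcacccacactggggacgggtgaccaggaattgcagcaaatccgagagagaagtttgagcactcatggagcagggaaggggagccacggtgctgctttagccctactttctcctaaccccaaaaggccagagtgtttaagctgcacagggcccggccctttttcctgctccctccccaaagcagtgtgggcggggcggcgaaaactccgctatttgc
Gzmm (chr10:79693576-79693825, plus strand): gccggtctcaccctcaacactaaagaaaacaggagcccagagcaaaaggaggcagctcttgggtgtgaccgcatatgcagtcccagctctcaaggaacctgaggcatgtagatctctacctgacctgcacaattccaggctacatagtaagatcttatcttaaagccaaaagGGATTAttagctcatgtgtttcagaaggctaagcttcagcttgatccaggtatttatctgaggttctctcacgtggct
Ankrd33b (chr15:31367760-31368009, minus strand): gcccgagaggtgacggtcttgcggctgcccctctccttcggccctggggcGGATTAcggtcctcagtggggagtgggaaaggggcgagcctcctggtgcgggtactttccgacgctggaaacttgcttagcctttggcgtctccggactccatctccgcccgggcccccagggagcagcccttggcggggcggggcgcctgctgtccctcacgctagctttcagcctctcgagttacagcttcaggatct
Gabrr2 (chr4:33062862-33063111, plus strand): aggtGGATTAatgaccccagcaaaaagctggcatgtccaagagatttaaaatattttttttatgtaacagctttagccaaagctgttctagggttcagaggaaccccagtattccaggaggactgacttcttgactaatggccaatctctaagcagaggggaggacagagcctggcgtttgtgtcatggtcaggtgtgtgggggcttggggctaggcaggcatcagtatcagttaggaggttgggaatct
Gnb5 (chr9:75306038-75306287, plus strand): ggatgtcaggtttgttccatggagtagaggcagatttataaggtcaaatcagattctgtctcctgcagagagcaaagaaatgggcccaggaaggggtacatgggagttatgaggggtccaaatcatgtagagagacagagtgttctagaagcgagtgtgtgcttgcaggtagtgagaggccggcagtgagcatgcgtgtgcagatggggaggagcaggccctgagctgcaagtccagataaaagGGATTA
Unc119 has 3 windows and Gzmm 2, and the letters are in 1 window of each, the one printed. They begin 124 bases before the start in Ppef2, 118 in Unc119, 229 in Pla2r1, 78 in Gzmm, 200 in Ankrd33b, 246 in Gabrr2 and 6 in Gnb5. Among all genes called at least 4-fold higher in retina, 29 of 211 windows held TAATCC (13.74%), against 4 of 179 windows of genes at least 4-fold lower (2.235%) and 5.635% of the windows of all measured genes. The share over all promoters in the table was 7.062%. TAATTA, letters bound by Lhx and other homeodomain factors, was in 1.896% of the windows of the higher genes, 5.587% of the lower and 2.984% of all measured. The E-box letters CAGATG were in 16.11%, 13.41% and 12.2%, and CAGCTG in 17.06%, 20.11% and 15.47%. TAATCC and TAATTA share their first 4 letters, and the E-box motifs overlap neither. The median GC content of the windows was 56.67% for the higher, 60.33% for the lower and 59.67% for all measured genes. A match is a description of the letters and was not tested further.

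On the side lower in retina, the genes of ranks 13 to 42 include several of adhesion and matrix. Cdh13, the lipid-anchored T-cadherin, had 16.4, 15, 18.8, 28.2 and 8.99 in retina, where 1 array was above background, and 503, 545, 559, 523 and 638 in cortex, and was lower by 4.11 ± 0.14. St8sia4, which builds polysialic acid on the adhesion molecule NCAM, had 44.7, 41.9, 47, 52.4 and 33.5 in retina and 1046, 905, 1013, 1046 and 648 in cortex and was lower by 3.97 ± 0.13. Bcan, the brain matrix proteoglycan brevican, had 19.7, 18.8, 17, 19.1 and 11.8 in retina and 433, 563, 332, 417 and 429 in cortex and was lower by 3.75 ± 0.13, with 1 retina array above background and -1.11 ± 0.20 on its other probe set. In all 3 genes the lowest cortex value exceeded the highest retina value by many times. Ccn3, a secreted matricellular protein, was at least 11.8-fold lower, Adgrg1, an adhesion receptor needed for cortical layering, was lower by 3.53 ± 0.15 and Adam19, a membrane protease, by 3.16 ± 0.11, with 3 and 1 retina arrays above background.

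The rest include transcription factors, signalling and cytoskeletal genes. Nfib, a nuclear factor I transcription factor of forebrain development, had 117, 157, 122, 128 and 121 in retina and 1681, 1793, 1641, 1419 and 1547 in cortex, lower by 3.50 ± 0.08, and its other probe set differed by -3.38 ± 0.08. Nfix of the same family was lower by 3.14 ± 0.10 and Klf5, a Kruppel-like factor, by 3.20 ± 0.17, with 1 retina array above background for Klf5. Signalling genes were Rac3, a small GTPase of developing neurons (3.87 ± 0.13), Sla, an adaptor that restrains Src-type kinase signalling (at least 15.9-fold), Ppp1r14b, an inhibitor of protein phosphatase 1 (3.60 ± 0.09), and Ptpn5, the striatum-enriched tyrosine phosphatase (3.91 ± 0.14). Rac3 was above background on 4 retina arrays and Ptpn5 on 1, and another probe set of Ptpn5 differed by 0.27 ± 0.14. Cytoskeletal genes were the actin binder Dbn1 (3.61 ± 0.16, 4 retina arrays above background), the growth cone protein Gap43 (3.42 ± 0.10), the MARCKS relative Marcksl1 (3.18 ± 0.08) and the stathmin Stmn4 (3.10 ± 0.09). Gatm, the first enzyme of creatine synthesis, was lower by 3.10 ± 0.09 and Rab3b, a small GTPase of secretory vesicles, was at least 12.3-fold lower. The other 11 genes were Ccnd2, Igfbpl1, Lmo7, D430019H16Rik, Nexmif, Sst, Nkain1, Scrg1, Jpt1, Tspan6 and Csrp2. The limma adjusted p of the genes given on this side was at most 4.4e-09. At site 2, whose arrays carry aliquots of the same pools, all 30 genes of either side were called in the same direction, where 16.7% of probe sets were called higher and 15.8% lower in retina. These genes were picked for large differences without overlap at the first site, so this repeats the measurement and is not independent support. Of all 265 genes called at the first site and named here, 226 were called in the same direction at site 2, 39 were not called there and 0 were called in the other direction by limma. Those not called include Cpe, Eef1a1, Gnao1, Grin2b, Hmgn1, Cst3, Chgb and Hk1. With 3 arrays per tissue there, a missed call does not show that a gene did not differ.

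**Figure D1:**
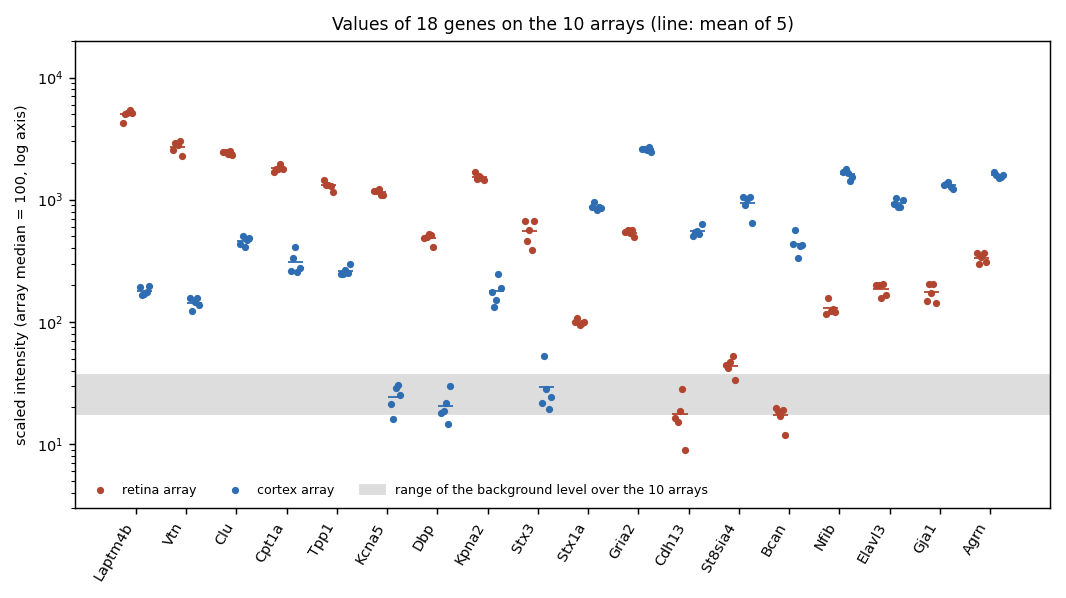
Scaled intensity (array median 100, log axis) of 18 genes on each of the 5 retina and 5 cortex arrays, with the mean of each group as a line and the range of the background level over the 10 arrays in grey. The genes were picked from those described in the text, and for each of them the arrays of the tissues do not overlap, with Kcna5, Dbp, Cdh13 and Bcan near background in the lower tissue.

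The brightest genes of each tissue were described as the 40 with the highest mean intensity. Brightness depends on the probes, so the order within a tissue describes probe sets and does not rank transcript numbers. The lists shared 13 genes: the tubulins Tuba1a and Tuba1c, the actin gene Actg1, the elongation factor Eef1a1, the ribosomal protein genes Rpl41, Rps24 and Rps28, and Ybx1, Tpt1, Gnas, Gsk3a, Cadm1 and Hsp90aa1. Their differences between tissues were at most 0.61 in size, with 1 higher and 9 lower in retina. They held 2.19% ± 0.16 of the summed intensity of all probe sets on the retina arrays and 2.62% ± 0.16 on the cortex arrays (SD over 5 arrays each). The 40 brightest probe sets held 7.21% ± 0.51 in retina and 7.71% ± 0.47 in cortex.

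The 27 genes brightest in retina alone were all higher there. They were picked for being bright in retina and not in cortex on these arrays, so that direction is not a finding. The same holds for their shares of intensity. Of them, 12 act in phototransduction or the outer segment, and their summed share of intensity was 1.95%, 2.25%, 2.15%, 2.18% and 2.31% on the retina arrays against 0.0830%, 0.0698%, 0.0554%, 0.0787% and 0.0678% on the cortex arrays. Unc119, a carrier of lipid-tailed proteins such as transducin, was 1 of the 12 and differed by 4.32 ± 0.07. A further 6 turn over glucose or phosphocreatine: Ldha, Aldoa, Pkm, Tpi1, Pgam1 and Ckb. They made up 0.943% ± 0.066 of the retina signal and 0.334% ± 0.012 of the cortex signal (SD over 5 arrays each), and they were higher by 0.78 to 1.88.

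The other 9 were put in neither of these groups. Hmgn1, a nucleosome-binding protein, ranked 3 in retina with a mean of 8603 ± 671 and a mean of 4069 ± 401 in cortex. Hif1a, the oxygen-regulated transcription factor, differed by 1.28 ± 0.07, Cst3, the secreted protease inhibitor cystatin C, by 1.04 ± 0.07, Pcbp2, a poly(C)-binding protein, by 1.34 ± 0.08 and Slc6a6, the taurine transporter, by 1.93 ± 0.07. The prion protein gene Prnp (0.72 ± 0.08), the prohormone-processing enzyme gene Cpe (0.42 ± 0.07) and the proton pump subunit gene Atp6v1b2 (0.60 ± 0.07) differed less than 2-fold. The remaining gene was Laptm4b, which ranked 40 in retina and 3736 in cortex.

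Genes of growing neurons made up much of the cortex list. Of the 27 genes brightest in cortex alone, 26 were lower in retina, and Rpl7 did not pass the test (-0.17 ± 0.09, limma adjusted p = 0.13). Here too the direction and the shares of intensity follow largely from how the genes were picked. The 7 tubulins, stathmins and microtubule partners were Tubb2a, Tubb5, Tubb3, Stmn1, Stmn2, Mapt and Crmp1, lower by 1.23 to 2.87. Their share of intensity was 1.40%, 1.49%, 1.27%, 1.35% and 1.30% on the cortex arrays and 0.376%, 0.382%, 0.391%, 0.400% and 0.380% on the retina arrays. The 7 genes of growth cones, adhesion and neuronal membranes (Basp1, Cd24a, Ncam1, App, Rtn1, Nnat, Nrep) held 1.12% ± 0.06 in cortex and 0.356% ± 0.014 in retina. The actin monomer-binding thymosins Tmsb10 and Tmsb4x held 0.302% ± 0.019 and 0.0899% ± 0.0038, and were lower in retina by 1.49 ± 0.09 and 2.35 ± 0.08. Scd2, a desaturase of fatty acid synthesis, was lower by 0.60 ± 0.10, Gnao1, the G protein alpha subunit of growth cones, by 0.46 ± 0.09, and the 14-3-3 genes Ywhag and Ywhaz by 0.47 ± 0.09 and 0.81 ± 0.08. The largest limma adjusted p among the called genes of both lists was 0.027, that of Rpl41.

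**Figure D2:**
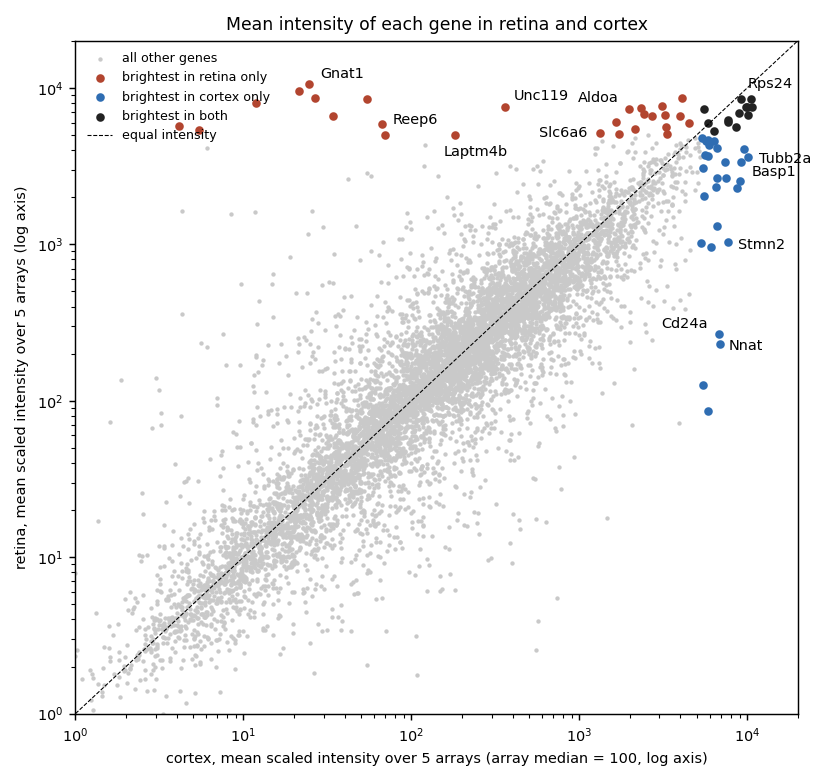
Mean scaled intensity of 8251 genes in retina against cortex over 5 arrays each (log axes, array median 100), with the 40 brightest genes of each tissue in colour. The 27 genes bright in retina alone spread from background to high levels in cortex, whereas 13 genes bright in both lie near the line of equal intensity.

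Genes were next grouped into 43 lists by function, with 2162 genes measured, and each list was described by its members called in each direction. The shares of all genes, 25.8% higher and 28.5% lower, are the background for every count. More members were lower than higher in retina in 29 lists and more were higher in 14. The largest share lower, 72%, was that of cadherins and catenins, and the largest share higher, 55.6%, that of lysosome and autophagy.

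**Figure D3:**
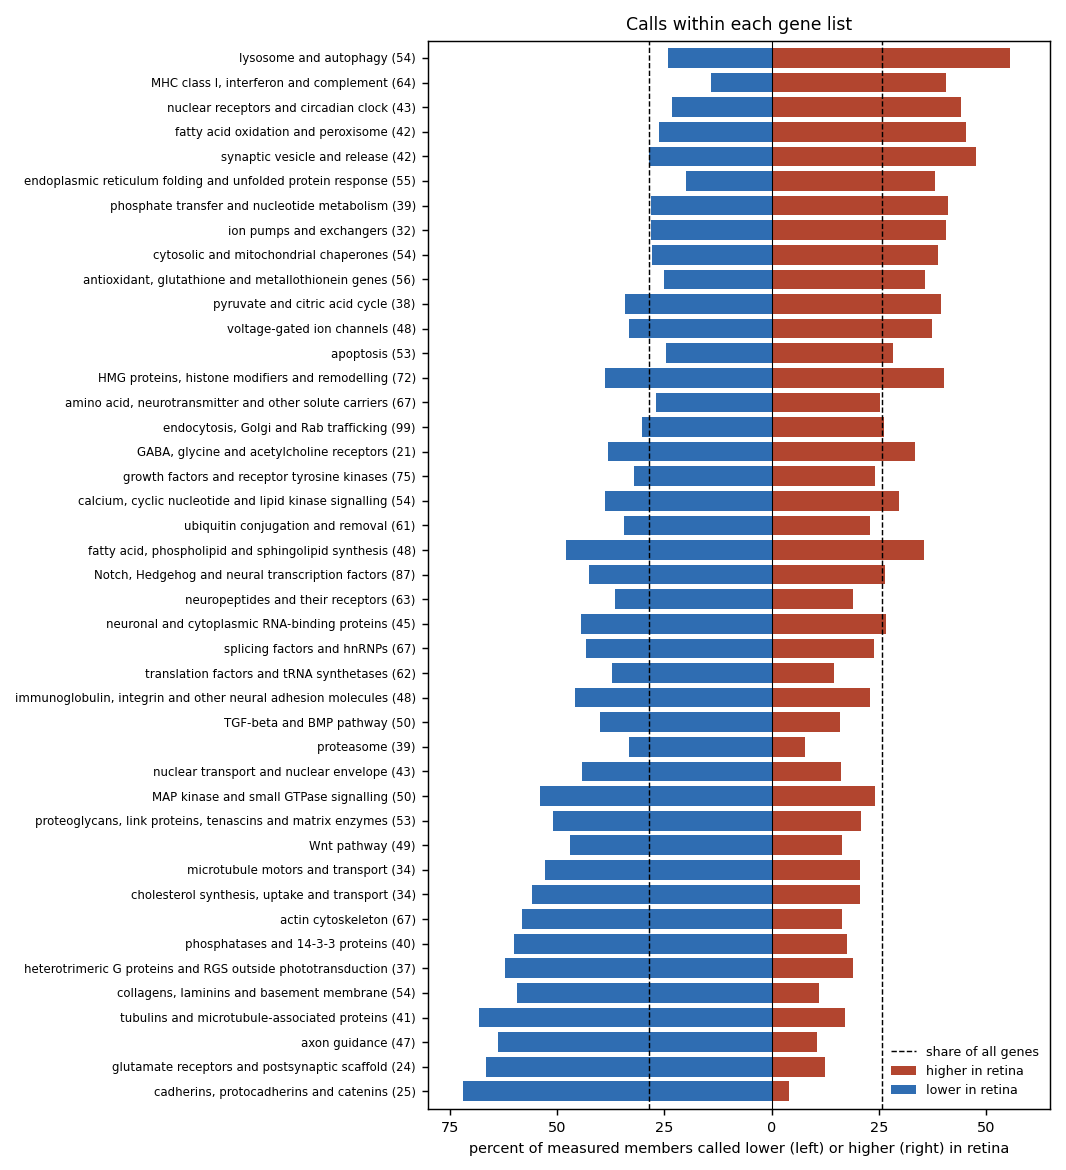
Percent of the measured members of each of 43 gene lists called lower (left) or higher (right) in retina, with the number measured in brackets and the shares of all genes, 28.5% and 25.8%, as dashed lines. The share lower was largest for cadherins and catenins (72%), and the share higher for lysosome and autophagy (55.6%).

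More genes of transmitter release were higher than lower in retina, and more glutamate receptor genes were lower. Of the 42 measured genes of synaptic vesicles and release, 20 were higher and 12 lower in retina, with a median of 0.24. Syp, the vesicle protein synaptophysin, was higher by 1.96 ± 0.07 and Stxbp3, a partner of syntaxins, by 2.16 ± 0.11. Stx3, the syntaxin of ribbon synapses, had 675, 462, 569, 388 and 669 in retina and 21.8, 52.5, 28.4, 19.5 and 24.1 in cortex, where 3 arrays were above background, and its 3 probe sets were all higher, by 3.66 ± 0.19, 2.85 ± 0.23 and 2.06 ± 0.14. The conventional presynaptic syntaxin Stx1a went the other way, with 98.9, 107, 94.7, 98.3 and 100.4 in retina and 870.5, 959, 821, 879 and 855 in cortex. Rab3d, a GTPase of secretory vesicles, was at least 10.3-fold lower and Syt5, a synaptotagmin, lower by 2.02 ± 0.11.

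Glutamate receptors and their scaffold had 3 of 24 members higher and 16 lower, with a median of -0.71. Gria2, the AMPA receptor subunit that blocks calcium entry, had 542, 559.8, 537, 560.1 and 492 in retina and 2619, 2596, 2548, 2706 and 2439 in cortex, lower by 2.23 ± 0.05. Of its other 3 probe sets, 2 differed by -1.98 ± 0.12 and -2.55 ± 0.23 and the last by -0.11 ± 0.08. Cnih2, an auxiliary AMPA receptor subunit, was lower by 2.43 ± 0.09 and Grin2b, an NMDA receptor subunit of young neurons, by 1.79 ± 0.16. The 3 higher members were the scaffold genes Dlg1 (1.33 ± 0.08) and Homer3 (0.57 ± 0.09) and the presynaptic metabotropic receptor gene Grm8 (1.10 ± 0.11).

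Inhibitory and cholinergic receptors were split, with 7 of 21 higher and 8 lower and a median of -0.19. Gabrr2, which like Gabrr1 encodes a GABA-C type subunit, was at least 10.2-fold higher and Gabrd, an extrasynaptic subunit, at least 2.75-fold, while Gabrb1 was lower by 2.22 ± 0.10 and Gabra2 by 1.28 ± 0.08. Voltage-gated channels had 18 of 48 higher and 16 lower, median -0.01. Kcnab2, a cytosolic potassium channel subunit, was higher by 3.01 ± 0.07 and Cacnb2, the calcium channel beta subunit of photoreceptor synapses, by 2.29 ± 0.11, whereas Kcnk2, a leak channel, was lower by 2.56 ± 0.06 and Kcnd2, an A-type channel, by 2.31 ± 0.18. Ion pumps and exchangers had 13 of 32 higher and 9 lower, median 0.02. Atp1b2, a sodium pump beta subunit, was higher by 2.32 ± 0.10 on its brightest probe set and differed by -0.22 ± 0.17 on the other. Slc8a1, a sodium-calcium exchanger, was lower by 1.42 ± 0.09. Neuropeptides and their receptors had 12 of 63 higher and 23 lower, median -0.19. Vipr2, a receptor for vasoactive intestinal peptide, was at least 8.84-fold higher, and the granule proteins Chgb and Scg2 were higher by 1.67 ± 0.07 and 1.64 ± 0.07, with 0.32 ± 0.12 for a second probe set of Chgb. The receptor genes Ntsr1, Npy1r and Ednrb were at least 10.2-fold, 5.09-fold and 5.13-fold lower, while a second probe set of Npy1r differed by -0.02 ± 0.14. Among the synaptic and receptor genes given, limma's adjusted p was at most 0.00014.

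In 4 lists of intracellular signalling more members were lower than higher in retina. Heterotrimeric G proteins and RGS proteins, listed apart from most phototransduction genes, had 7 of 37 members higher and 23 lower, with a median of -0.52. Gnb5, the beta subunit that pairs with R7-type RGS proteins, had 1687, 1971, 1847, 2048 and 1635 in retina and 185, 189.6, 208, 205 and 186 in cortex, higher by 3.13 ± 0.07. The R7-type regulator Rgs11 was higher by 1.30 ± 0.12, although another probe set differed by -0.06 ± 0.15. On the lower side Gng2, Gng10 and Gnb4, which form beta-gamma dimers, differed by -2.80 ± 0.10, -2.51 ± 0.09 and -2.38 ± 0.09.

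MAP kinase and small GTPase signalling had 12 of 50 members higher and 27 lower, median -0.37. Rasgrf1, a calcium-regulated Ras activator, was higher by 2.91 ± 0.10 with 2 cortex arrays above background, and Map3k1 by 2.04 ± 0.07 (1.35 ± 0.11 and 0.04 ± 0.08 on other probe sets), while Nras, Rhob and Mapk8, which encodes JNK1, were lower by 2.38 ± 0.08, 1.61 ± 0.09 and 1.39 ± 0.07. Phosphatases and 14-3-3 proteins had 7 of 40 higher and 24 lower, median -0.39. Ptprz1, a receptor phosphatase of glia and their precursors, was lower by 2.18 ± 0.09, and by more on its other 2 probe sets (-6.03 ± 0.13 and -2.91 ± 0.18). Calcium, cyclic nucleotide and lipid kinase signalling was divided, with 16 of 54 higher, 21 lower and a median of -0.05. Its higher members included Camk2d (1.91 ± 0.13, with 3 cortex arrays above background), and its lower members Camk2b (-1.43 ± 0.08), both subunits of calmodulin kinase II. For these signalling genes limma's adjusted p reached at most 1.2e-06.

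In 3 lists of energy metabolism more members were higher than lower in retina. Fatty acid oxidation and peroxisome genes had 19 of 42 members higher and 11 lower, median 0.09, and 11 were at least 2-fold higher against 1 at least 2-fold lower. Cpt1a, which carries out the rate-limiting entry of fatty acids into mitochondria, had 1684, 1794, 1790.2, 1968 and 1786 in retina and 263, 336, 412, 257 and 278 in cortex, higher by 2.50 ± 0.11. Acadm, a dehydrogenase of the oxidation spiral, was higher by 2.04 ± 0.07 and Eci1, an isomerase for unsaturated chains, by 1.88 ± 0.13. Cpt2 was higher by 1.57 ± 0.08 on its brightest probe set and differed by -0.11 ± 0.09 on the other. Acot1, a thioesterase, was lower by 1.62 ± 0.10.

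Pyruvate and citric acid cycle genes had 15 of 38 higher and 13 lower, median 0.12. Me1, the malic enzyme that makes NADPH, was higher by 1.41 ± 0.07 and the succinate dehydrogenase subunit Sdha by 1.31 ± 0.06, while the cytosolic isocitrate dehydrogenase Idh1, the ketone body enzyme Oxct1 and the citrate carrier Slc25a1 were lower by 2.09 ± 0.07, 1.53 ± 0.07 and 1.33 ± 0.06. Phosphate transfer and nucleotide metabolism had 16 of 39 higher and 11 lower, median 0.15. Impdh1, the committed enzyme of guanine nucleotide synthesis, was higher by 2.51 ± 0.08 and Nt5e, which makes adenosine outside cells, by 2.37 ± 0.18. Adss, at the branch to adenine nucleotides, was lower by 2.02 ± 0.07.

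In both lists of lipid synthesis more members were lower than higher in retina. Cholesterol synthesis, uptake and transport had 7 of 34 members higher and 19 lower, median -0.49. The synthesis enzymes Hmgcs1 and Sqle were lower by 1.46 ± 0.08 and 1.66 ± 0.09, and Apod, a lipid carrier of glia, was at least 6.13-fold lower. The receptors Vldlr and Scarb1 and the lysosomal exporter Npc1, which take up or pass on lipid, were higher by 1.86 ± 0.12, 1.59 ± 0.08 and 1.28 ± 0.09. Fatty acid, phospholipid and sphingolipid synthesis had 17 of 48 higher and 23 lower, median -0.14. Srebf1, a transcription factor of lipid synthesis genes, was higher by 1.28 ± 0.06, and Gpd2, a glycerol phosphate dehydrogenase, was lower by 2.57 ± 0.10. No metabolic gene given had a limma adjusted p above 1.4e-07.

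In all 3 cytoskeleton lists more members were lower than higher in retina. Tubulins and microtubule-associated proteins had 7 of 41 members higher and 28 lower, median -0.75. The exceptions were led by Map7, a microtubule stabiliser of epithelia and axon branches (2.56 ± 0.09), and the tubulin Tuba4a (1.34 ± 0.06). Microtubule motors and transport had 7 of 34 higher and 18 lower, median -0.36, with the kinesin Kif3c and the dynein chain Dync1i1 lower by 1.38 ± 0.07 and 1.06 ± 0.07 and the minus-end myosin Myo6 of the same list higher by 1.31 ± 0.08. Actin cytoskeleton genes had 11 of 67 higher and 39 lower, median -0.46, and 18 were at least 2-fold lower against 0 at least 2-fold higher.

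The 4 adhesion and matrix lists also had more members lower than higher. Cadherins, protocadherins and catenins had 1 of 25 members higher and 18 lower, median -0.92. The exception was Ctnna1, the alpha catenin of epithelia (1.23 ± 0.10, and 0.06 ± 0.21 on its other probe set), while its neuronal relative Ctnna2 was lower by 1.93 ± 0.08. Immunoglobulin, integrin and other adhesion molecules had 11 of 48 higher and 22 lower, median -0.25. The glial gap junction gene Gja1, connexin 43, had 147, 204, 174, 202 and 143 in retina and 1309, 1344, 1405, 1269 and 1219 in cortex, lower by 2.81 ± 0.10, and the neuronal connexin gene Gjd2 was at least 3.04-fold higher.

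Collagens, laminins and basement membrane genes had 6 of 54 higher and 32 lower, median -0.66. Agrn, the basement membrane proteoglycan agrin, had 367, 299, 340.2, 365 and 307 in retina and 1680.3, 1606, 1504, 1535 and 1588 in cortex, lower by 2.19 ± 0.07, and Nid2, a nidogen, was at least 2.26-fold lower. P4ha1, a prolyl hydroxylase of collagen folding, was higher by 1.5 ± 0.09. Fibroblast markers, of which 3 of 4 were lower, moved with this list, and their part in it was not tested. Proteoglycans, link proteins, tenascins and matrix enzymes had 11 of 53 higher and 27 lower, median -0.37. Tnc, tenascin C of germinal zones, was lower by 2.49 ± 0.10. The sheddase Adam9 and the syndecan Sdc4 were higher by 1.91 ± 0.09 and 1.75 ± 0.10. Across the cytoskeletal, adhesion and matrix genes given, limma's adjusted p stayed at or below 3.1e-07.

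Genes of axon guidance and of the Wnt pathway had more members lower than higher in retina. Axon guidance genes had 5 of 47 members higher and 30 lower, median -0.65, and 22 were at least 2-fold lower. The semaphorin receptors Plxnd1 and Nrp1 were lower by 2.90 ± 0.11 and 2.53 ± 0.08 and the ephrin Efnb3 by 2.14 ± 0.07. Of the 5 higher members, 4 were semaphorins, Sema3f (1.39 ± 0.12, 4 cortex arrays above background), Sema3e (1.28 ± 0.28), Sema4d (0.82 ± 0.11) and Sema3b. Semaphorins did not all go this way. A measured pair of other class 3 semaphorins was called lower, at -1.27 ± 0.19 and -1.50 ± 0.17. Sema3b had a retina mean of 23.4 ± 16.5 and a cortex mean of 8.35 ± 1.49 and was above background on 2 retina arrays and no cortex array, so no fold is given. It had a limma adjusted p of 0.034, which rose to between 0.052 and 0.084 when any 1 of retina arrays 3 and 5 or cortex arrays 1, 3, 4 and 5 was left out. In the Wnt pathway 8 of 49 were higher and 23 lower, median -0.28. The 2 largest differences toward retina belonged to secreted proteins, the Wnt-binding Frzb (at least 5.53-fold) and the Dickkopf relative Dkk3 (2.06 ± 0.09), and the receptor Fzd2 was at least 4.81-fold lower. The TGF-beta and BMP pathway had 8 of 50 higher and 20 lower, median -0.20, with Bmp6 and its antagonist Fst at least 3.55-fold and 2.54-fold lower and Tgfb2 higher by 1.53 ± 0.10. Growth factors and receptor tyrosine kinases had 18 of 75 higher and 24 lower, median -0.09, shares close to those of all genes. Kit and its ligand Kitl were both lower, by 2.39 ± 0.10 and 3.08 ± 0.14, and Gas6, a ligand of receptors for outer segment uptake, was higher by 1.46 ± 0.07.

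Transcription factor lists differed from each other. Notch, Hedgehog and neural transcription factors had 23 of 87 members higher and 37 lower, median -0.19. Nuclear receptors and clock genes had 19 of 43 higher and 10 lower, median 0.25. Beside Dbp, the clock-driven repressors Nr1d1 and Nr1d2 were higher by 1.67 ± 0.11 and 2.14 ± 0.11, and the forebrain patterning receptor Nr2f1 was lower by 2.58 ± 0.12. The hour at which each tissue was taken is not given in the sources used here. Chromatin genes, HMG proteins, histone modifiers and remodellers together, had 29 of 72 higher and 28 lower, median 0.01. Kat2b, a histone acetyltransferase, was higher by 3.00 ± 0.07 and Ezh1, a histone methyltransferase of mature cells, by 1.67 ± 0.09, whereas Hmgb3 and the remodelling subunit Smarcc1 were lower by 2.29 ± 0.06 and 1.66 ± 0.07. Apart from Sema3b, the largest limma adjusted p among the guidance, growth factor and regulator genes given was 0.0019, that of Sema3e.

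Lists of RNA handling were unlike each other in how many members reached 2-fold. Among all genes 8.28% were at least 2-fold higher and 8.68% at least 2-fold lower. Splicing factors and hnRNPs had 16 of 67 members higher and 29 lower, median -0.10, or 7 higher and 11 lower without scaling, and 1 was at least 2-fold lower and 0 were at least 2-fold higher. That gene was Ptbp2, a splicing repressor of developing neurons, lower by 1.12 ± 0.16. Neuronal and cytoplasmic RNA-binding proteins had 12 of 45 higher and 20 lower, median -0.12, with 6 at least 2-fold higher and 6 at least 2-fold lower. Elavl3, a neuron-specific RNA-stabilising protein, had 202, 201, 158, 205 and 166 in retina and 928, 1029, 873, 875 and 1000.3 in cortex, lower by 2.25 ± 0.08, and its relative Elavl2 was lower by 2.36 ± 0.11. The RNA editor Adarb1, the splicing regulator Mbnl1 and the cold shock domain gene Ybx3 were higher by 1.96 ± 0.09, 1.69 ± 0.08 and 1.66 ± 0.06. Nuclear transport and envelope genes had 7 of 43 higher and 19 lower, median -0.21. Kpna2, an importin alpha known from dividing cells, went against its list with 1678, 1482, 1558, 1496 and 1458 in retina and 174, 133, 149.6, 245 and 190.4 in cortex, higher by 3.02 ± 0.12.

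Lists of protein synthesis and breakdown had more members lower than higher, except that of the lysosome. Translation factors and tRNA synthetases had 9 of 62 higher and 23 lower, median -0.17, or 4 higher and 8 lower without scaling, with Eif3a lower by 1.32 ± 0.10. The proteasome list had 3 of 39 higher and 13 lower, median -0.10, and 23 did not pass. Its largest difference was that of the immunoproteasome subunit Psmb8, higher by 1.05 ± 0.21 with 3 cortex arrays above background. Ubiquitin genes had 14 of 61 higher and 21 lower, median -0.03, and without scaling of the arrays the majority turned. Usp2, a deubiquitinase with a daily rhythm in many tissues, was higher by 2.82 ± 0.09, with 3.08 ± 0.09 for a second probe set, and Uchl1, the abundant neuronal hydrolase, was lower by 1.48 ± 0.06.

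The lysosome and autophagy list had 30 of 54 members higher and 13 lower, median 0.38. Tpp1, a lysosomal peptidase whose loss causes a childhood neurodegeneration with blindness, had 1451, 1311, 1328, 1302 and 1167 in retina and 248, 249, 264, 250.4 and 299 in cortex, higher by 2.26 ± 0.07. The proteases Lgmn and Ctsd, of which Ctsd digests outer segments in pigment epithelium, were higher by 1.87 ± 0.11 and 1.22 ± 0.07. Ulk2, a kinase that starts autophagy, was lower by 1.42 ± 0.10. Pigment epithelium markers, 3 of 4 higher in retina, went the same way as most of this list, and microglia markers, 3 of 5 lower, went the other way. The part of either cell type in the list was not tested. Endocytosis, Golgi and Rab trafficking had 26 of 99 higher and 30 lower, median -0.10. Rab28 and Arl3, small GTPases of photoreceptor and ciliary membranes, were higher by 2.55 ± 0.07 and 1.37 ± 0.08, and Rab33a, of growing axons, was lower by 1.58 ± 0.11. For the genes of RNA and protein handling given, limma's adjusted p was at most 0.00091.

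Stress and immune lists were counted in the same way. Cytosolic and mitochondrial chaperones had 21 of 54 members higher and 15 lower, median 0.13. Hspa1a and Hspa1b, near-identical genes whose signals may not be separable, were higher by 3.17 ± 0.08 and 3.65 ± 0.11, the neuronal co-chaperone Dnajb2 by 1.87 ± 0.10, and the co-chaperones Hsph1 and Dnaja1 were lower by 0.99 ± 0.09 and 0.99 ± 0.06. Endoplasmic reticulum folding and the unfolded protein response had 21 of 55 higher and 11 lower, median 0.13. Among its transcription factors Atf6 was higher by 1.99 ± 0.12, Atf4 by 1.15 ± 0.07 and Ddit3, which encodes CHOP, by 2.54 ± 0.32 with 3 cortex arrays above background. Antioxidant, glutathione and metallothionein genes had 20 of 56 higher and 14 lower, median -0.0041. Cp, the copper oxidase ceruloplasmin, was at least 13.1-fold higher, Gpx4, which removes lipid peroxides, was higher by 1.56 ± 0.09 and Nfe2l2, the regulator NRF2, by 1.48 ± 0.13, while the thioredoxin gene Txn1 was lower by 1.36 ± 0.07. Apoptosis genes had 15 of 53 higher and 13 lower, median 0.03, shares close to those of all genes, with Bnip3, an oxygen-regulated mitophagy receptor, higher by 2.31 ± 0.11 and Traf4, an adaptor of developing neural tissue, lower by 2.84 ± 0.10.

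The MHC class I, interferon and complement list had 26 of 64 members higher and 9 lower, median 0.23. Beside Vtn and Cd59a, the secreted chaperone and complement inhibitor Clu had 2456, 2441, 2384, 2489 and 2301 in retina and 436, 509, 413, 465 and 482 in cortex, higher by 2.35 ± 0.06, with 2.51 ± 0.09 for a second probe set. Tapbp, which loads peptides on MHC class I, was higher by 1.96 ± 0.08. The complement regulator Cr1l was lower by 2.07 ± 0.19, with 1 retina array above background. Solute carriers had 17 of 67 higher and 18 lower, median -0.05, a majority that turned without scaling, with quantile normalization and with the pseudocount added before centring. The lactate transporter Slc16a1 was higher by 2.05 ± 0.10 with 4 cortex arrays above background, and the amino acid transporters Slc7a5 and Slc1a4 were lower by 1.37 ± 0.06 and 1.67 ± 0.11. In the stress, immune and transport lists the genes given had a limma adjusted p of at most 1.5e-05.

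Pairs of related genes were counted by the direction in which both members were called. Of 132 pairs of isoforms or close relatives, 95 were measured. In 49 pairs both genes were called in the same direction, in 29 at least 1 gene was not called, and in 17 the genes were called in opposite directions. Among all genes 25.8% were called higher and 28.5% lower, so unrelated genes would also often be called in opposite directions. How often was not counted, and the 17 pairs are a description and not a result about related genes. The widest gap was between the syntaxins Stx3 and Stx1a given above. The hexokinase Hk2 had 2433, 2825, 2480.5, 2935 and 2396 in retina and 42.7, 19.3, 65.6, 36 and 45 in cortex, while Hk1 had 1569, 1274, 2127, 1664 and 1499 in retina and 2273, 2899, 2979, 3460.4 and 3675 in cortex, a difference of -0.90 ± 0.14. At site 2 Hk1 differed by -0.10, with a limma adjusted p of 0.86. Hk2 was above background on 4 cortex arrays, and another probe set of it differed by -0.29 ± 0.17.

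The transcription factors Mef2d and Mef2c, which act on neuronal activity genes, differed by 0.96 ± 0.07 and -2.55 ± 0.08, with Mef2d at 4606, 5144, 4827, 5411 and 4955 in retina and 2679, 2529.6, 2467, 2707 and 2392 in cortex. Protein kinase C alpha, the rod bipolar cell marker Prkca, was higher by 1.70 ± 0.08 and Prkcb lower by 0.65 ± 0.07. The G protein beta subunits Gnb1 and Gnb2 differed by 1.67 ± 0.16 and -1.89 ± 0.12, and the other 2 probe sets of Gnb1 by 2.59 ± 0.06 and -0.20 ± 0.20. The metalloprotease inhibitors Timp3 and Timp2 differed by 0.87 ± 0.11 and -1.40 ± 0.10, with -0.19 ± 0.10 and -0.16 ± 0.11 for other probe sets of Timp2. The synaptotagmins Syt1 and Syt4 differed by 1.08 ± 0.14 and -0.77 ± 0.12, and the metallothioneins Mt1 and Mt3 by 0.73 ± 0.08 and -0.75 ± 0.09. Nme2, a nucleoside diphosphate kinase, was lower by 3.01 ± 0.08 while Nme1 was higher by 0.32 ± 0.07 with overlapping arrays and -0.08 ± 0.18 on a second probe set.

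In chromatin, the histone deacetylase Hdac2 was lower by 1.03 ± 0.12 and its relatives Hdac1 and Hdac5 were higher by 0.64 ± 0.09 and 0.72 ± 0.09. The elongation factor genes differed less, with Eef1a2, the form of mature neurons and muscle, higher by 0.45 ± 0.09 and Eef1a1 lower by 0.39 ± 0.09. The remaining pairs were Tuba4a and Tuba1a (1.34 ± 0.06 and -0.50 ± 0.10), Rdx and Ezr (0.46 ± 0.07 and -0.28 ± 0.07), Sparc and Sparcl1 (0.42 ± 0.12 and -0.27 ± 0.06), Hnrnph2 and Hnrnph1 (0.68 ± 0.13 and -0.32 ± 0.06), and Hspa1b against Hspa8 (-0.17 ± 0.06). The arrays of the tissues overlapped for Sparc and Hnrnph2. Tuba1a and Tuba1c are near-identical, so their signals may not be separable. The Hspa8 pair was lost under 10 of 19 alternatives. Over the 17 pairs the largest adjusted p of a member was 0.038, that of Hspa8. Probe sets of close relatives can share sequence, and the array's probe sequences were not examined here.

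**Figure D4:**
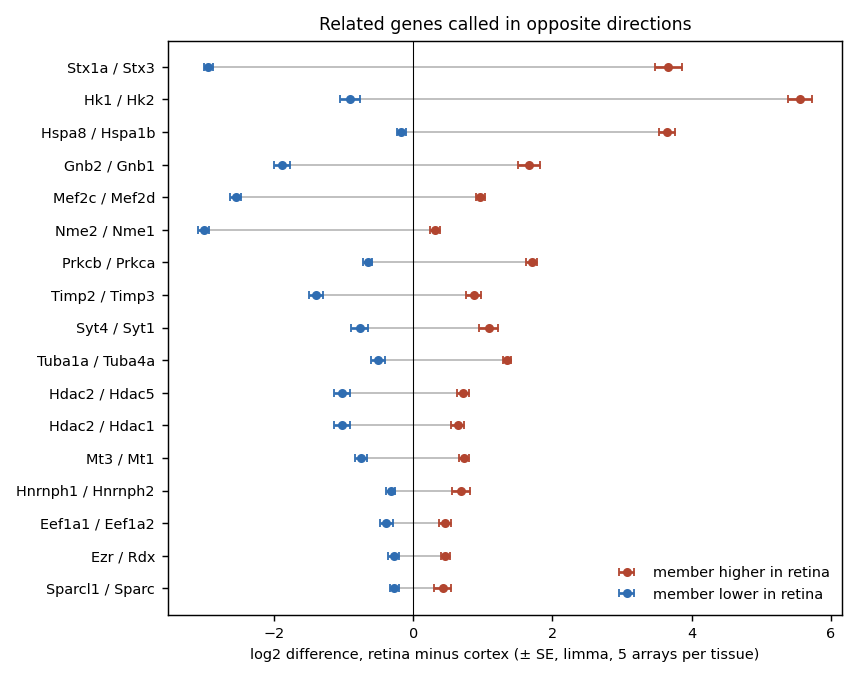
Log2 difference between retina and cortex, with SE, for both members of the 17 pairs called in opposite directions, from the widest gap (Stx1a and Stx3) to the narrowest (Sparcl1 and Sparc). Stx3 lies at 3.66 and Stx1a at -2.95, whereas Sparc lies at 0.42 and Sparcl1 at -0.27.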

How the data were processed

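The authors deposited 1 linear intensity per probe set and array, on a mouse Affymetrix array, and the software that made it is not given in the sources used here. All 66 control probe sets were left out. Each array was scaled to a median of 100, and log2(intensity + 16) of the 12422 probe sets was fitted with limma 3.58.1 (R 4.3.3; lmFit, eBayes with an intensity trend) on the 10 first-site arrays, with Benjamini-Hochberg adjustment and a threshold of 0.05. Summaries used Python 3.11.15. The code was tested on simulated data. Of the probe sets, 10833 had 1 gene symbol, 396 several and 1193 are unnamed here. Symbols were updated through Entrez identifiers to RefSeq GRCm38.p6, and a gene was represented by its probe set of highest mean log2 value over the 16 arrays. "At least" folds set the brighter group's mean against the background level or the probe set's own value, whichever was higher on each array; the background level was chosen after the data were seen. The number of arrays limits precision.

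Genes named were up to 4 members per list and direction with the largest called difference, ranks 13 to 42, the 40 brightest per tissue, members of opposite pairs and markers. The members and lists were chosen with earlier results of these data known. The alternatives were pseudocounts of 1 and 50, the pseudocount before centring, no scaling, quantile normalization, only probe sets above the median signal, a replicate block, all 16 arrays in one fit, no intensity trend, averaged probe sets and each array left out.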

Additional observations from a re-analysis of the deposited data

Results flagged for a closer look

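The difference between retina and cortex was itself unequal at the sites for 25 of the genes given in the report, by the interaction of tissue and site in limma over all 16 arrays with Benjamini-Hochberg adjustment. Over all probe sets, 525 passed that test. Values are the difference at site 2 minus that at the first site (log2, with SE). The value was above 0, at 1.68 ± 0.23 for Gnb3, 1.56 ± 0.37 for Tnfaip3, 1.40 ± 0.30 for Nt5e, 1.24 ± 0.21 for Nnat and 1.00 ± 0.21 for Cdh13. Next were 0.90 ± 0.13 for Gas6, 0.86 ± 0.23 for Rab3d, 0.76 ± 0.18 for Ccnd2, 0.71 ± 0.19 for Crmp1 and 0.71 ± 0.16 for Marcksl1. Then came 0.69 ± 0.14 for Hdac5, 0.69 ± 0.14 for Nme2, 0.69 ± 0.18 for Sst, 0.68 ± 0.15 for Adss and 0.60 ± 0.14 for Hspa1a. Below these were 0.54 ± 0.12 for Slc25a1 and 0.50 ± 0.13 for Uchl1. The value was below 0, at -1.30 ± 0.22 for Gatm, -1.29 ± 0.19 for Traf4, -1.03 ± 0.13 for Mef2c, -0.82 ± 0.17 for Smarcc1 and -0.80 ± 0.20 for Nexmif. Next were -0.75 ± 0.19 for Sdc4, -0.71 ± 0.17 for Ntsr1 and -0.53 ± 0.14 for Laptm4b. Their adjusted p-values lay between 0.0002 and 0.047, and the cause was not tested.

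One array lay apart from the other 4 of its group in 24 of 538 groups of 5 arrays, judged by its gap to the nearest array as a share of the group's range, with 0.71 as Dixon's critical value. Chance gives about 1 in 20 such groups. The lowest cortex array stood apart for Acadm (0.730, 254 on array 3 against 306 on the nearest), Atf6 (0.830, 38.1 on array 2 against 51.7 on the nearest), Dbn1 (0.724, 504 on array 3 against 549.9 on the nearest) and Lmo7 (0.715, 1225 on array 3 against 1367 on the nearest). The same held for the lowest cortex array of Nrp1 (0.732, 763 on array 3 against 831 on the nearest), Tmsb10 (0.771, 6018 on array 3 against 7682 on the nearest), Tspan6 (0.788, 687 on array 2 against 720.3 on the nearest) and Tubb2a (0.797, 8755 on array 3 against 10317 on the nearest). The highest cortex array stood apart for Adss (0.759, 1452 on array 2 against 1328 on the nearest), Bnip3 (0.720, 270.0 on array 3 against 202 on the nearest), Camk2d (0.774, 42.5 on array 4 against 31.0 on the nearest) and Gabrr1 (0.928, 46.7 on array 1 against 8.59 on the nearest). The same held for the highest cortex array of Gabrr2 (0.929, 16.5 on array 2 against 5.58 on the nearest), Gpd2 (0.782, 617 on array 5 against 497 on the nearest), Hmgcs1 (0.799, 3312 on array 4 against 2816 on the nearest) and Ptbp2 (0.796, 1511 on array 5 against 899.9 on the nearest). It also held for the highest cortex array of Rac3 (0.891, 844 on array 5 against 741 on the nearest) and Stx3 (0.731, 52.5 on array 2 against 28.4 on the nearest). The highest retina array stood apart for Cr1l (0.719, 30.8 on array 1 against 16.3 on the nearest) and Gnb2 (0.731, 1330.1 on array 4 against 961 on the nearest). The lowest retina array stood apart for Me1 (0.738, 1377 on array 5 against 1562 on the nearest), Mt1 (0.869, 696 on array 5 against 854 on the nearest), Nme1 (0.713, 764 on array 5 against 879 on the nearest) and Scg2 (0.822, 1729.7 on array 5 against 2032 on the nearest).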

How the results depend on the processing

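Leaving out scaling, so that arrays kept their deposited brightness, lowered the number of probe sets called lower in retina from 3184 to 2062, fewer than the 2351 called higher (53.3% of calls, against 46.6%), and the pairs called in opposite directions from 17 to 10, and the cause was not tested. No other alternative moved a total by over 1.5 times. Leaving out 1 array at a time gave 5668 to 5944 calls, 2628 to 2792 higher and 3006 to 3152 lower, 16 to 18 opposite pairs, 28 to 30 lists with more members lower and 13 to 13 shared brightest genes. It left 262 to 265 of the 265 called genes of the text called. The calls lost in this way were those of Hspa8 (limma adjusted p 0.063 to 0.096, without retina array 1, 2 or 5 or cortex array 1 or 4), Rpl41 (0.051 to 0.074, without retina array 1 or 3 or cortex array 1 or 2) and Sema3b (0.052 to 0.084, without retina array 3 or 5 or cortex array 1, 3, 4 or 5). Without scaling, differences under 1 in size were lost for 13 more genes of the text, among them Eef1a1, Tuba1a, Sparc and Ezr. With all 16 arrays in one fit 5506 probe sets were called (2594 higher, 2912 lower), opposite pairs numbered 13 and 252 genes of the text stayed called, with Cpe, Hsp90aa1, Eef1a1, Gnao1, Gnas, Hspa8, Nme1, Rpl41, Rps28, Tpt1, Tuba1a, Ybx1 and Ywhag lost. With the replicate number as a block, 5824 probe sets were called, with 16 opposite pairs. Same-numbered arrays had deviations that correlated at -0.09 to 0.06, and 1 of 5 retina arrays was closest to its own number, so the numbers were not taken as pairs. Genes that changed sign did not pass the test: Rps24 was at 0.11 with quantile normalization, and Cadm1 ranged from -0.022 to 0.080 as arrays were left out, with the sign turned without retina array 2, retina array 4 or cortex array 3. The other 2 probe sets of Cadm1 were called higher in retina, by 0.38 ± 0.09 and 0.50 ± 0.07. Of the list counts compared, 1593 of 1634 stayed within 1.5 times. Without scaling 23 moved by more. Counts of members lower fell for voltage-gated ion channels (16 to 10), ion pumps and exchangers (9 to 4), phosphatases and 14-3-3 proteins (24 to 14), pyruvate and citric acid cycle (13 to 6), phosphate transfer and nucleotide metabolism (11 to 5), fatty acid oxidation and peroxisome (11 to 7), microtubule motors and transport (18 to 11), splicing factors and hnRNPs (29 to 11), neuronal and cytoplasmic RNA-binding proteins (20 to 12), translation factors and tRNA synthetases (23 to 8), proteasome (13 to 6), ubiquitin conjugation and removal (21 to 11), lysosome and autophagy (13 to 5), endocytosis, Golgi and Rab trafficking (30 to 19), cytosolic and mitochondrial chaperones (15 to 6), endoplasmic reticulum folding and unfolded protein response (11 to 5), antioxidant, glutathione and metallothionein genes (14 to 9) and nuclear transport and nuclear envelope (19 to 9), and counts higher for ion pumps and exchangers (13 to 8), pyruvate and citric acid cycle (15 to 9), splicing factors and hnRNPs (16 to 7), translation factors and tRNA synthetases (9 to 4) and endocytosis, Golgi and Rab trafficking (26 to 16). With only probe sets above the median signal, where fewer genes were tested, 17 moved. Counts lower fell for GABA, glycine and acetylcholine receptors (8 to 3), cadherins, protocadherins and catenins (18 to 11), immunoglobulin, integrin and other neural adhesion molecules (22 to 12), collagens, laminins and basement membrane (32 to 17), proteoglycans, link proteins, tenascins and matrix enzymes (27 to 17), Wnt pathway (23 to 14), TGF-beta and BMP pathway (20 to 9), growth factors and receptor tyrosine kinases (24 to 12), Notch, Hedgehog and neural transcription factors (37 to 24), MHC class I, interferon and complement (9 to 5), amino acid, neurotransmitter and other solute carriers (18 to 11) and neuropeptides and their receptors (23 to 10), and counts higher for GABA, glycine and acetylcholine receptors (7 to 3), calcium, cyclic nucleotide and lipid kinase signalling (16 to 10), Wnt pathway (8 to 3), nuclear receptors and circadian clock (19 to 12) and MHC class I, interferon and complement (26 to 12). The proteasome list had 3 members higher, and 5 without retina array 5. Signal over background limits the dim genes, since 18.4% of the dimmest 4141 probe sets were called against 72.2% of the brightest 4141.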
